A study of Mus musculus with 27 samples.

Results

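MHC class II presentation was followed through 7 genes in mouse bone marrow-derived macrophages (BMDM). The set comprised the chain genes H2-Aa, H2-Ab1 and H2-Eb1, the chaperone gene Cd74, the peptide-loading genes H2-DMa and H2-DMb1, and the coactivator gene Ciita. They were taken by name, and all 7 were on the array, through 8 of its 55681 non-control probes, which carry 34844 gene names. Macrophages came from the marrow of female C57BL/6 mice aged 6 to 8 weeks, grown for 7 days in medium conditioned by L929 cells, a fibroblast line that secretes the macrophage growth factor CSF-1. Naïve BMDM received no ligand. Acute BMDM received a single Toll-like receptor ligand for 4 h. Re-stimulated BMDM were exposed to the ligand for 24 h, washed, rested, and exposed to the same ligand again for 4 h. The ligands were LPS (TLR4) at 100 ng/ml, CpG DNA (TLR9), Pam3CSK4 (TLR2) at 100 ng/ml and Poly(I:C) (TLR3) at 10 µg/ml. The labels give CpG at 100 µM and the methods at 1 µM, so its dose is uncertain. Each of the 9 groups had 3 samples, of which 25 of 27 arrays had deposited values: LPS re-stimulated BMDM (arrays numbered 1 and 2) and Pam3CSK4 acute BMDM (arrays numbered 1 and 3) had 2 each. The methods describe the replicates as different mice in one place and as pools of several mice in another, so p-values measure the spread between these cultures.

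MHC class II molecules are heterodimers that show peptides from the endosomal pathway to CD4+ T cells. H2-Aa and H2-Ab1 encode the α and β chains of I-A, and H2-Eb1 encodes the β chain of I-E, whose α chain is not made in C57BL/6 mice. The invariant chain Cd74 escorts new heterodimers and blocks their groove, and H2-DM, a dimer of the H2-DMa and H2-DMb1 products, exchanges the remnant of Cd74 for peptide. Ciita is recruited by RFX, CREB and NF-Y proteins bound to the X and Y boxes of class II promoters, and its level sets much of class II transcription. Resting macrophages carry little class II until interferon-γ induces Ciita.

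The probes lie, in the mm9 coordinates of the array annotation, at chr17:34421285-34421344 for H2-Aa, chr17:34406296-34406355 for H2-Ab1, chr17:34453075-34453134 for H2-Eb1, chr17:34297109-34297168 for H2-DMb1 and chr16:10526568-10526627 for Ciita. The H2-DMa probe spans chr17:34274300-34274863. A second H2-Ab1 probe overlaps the first and differed in the same direction in all comparisons with naïve BMDM. The 5 members on chromosome 17 therefore neighbour each other in the MHC, while Cd74 and Ciita lie elsewhere.

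Promoter windows from RefSeq (GRCm38.p6, 250 bases before to 50 after the start) were held for 4 of the 7 members, and 3 of them carried an X-box-like element followed by a Y-box element. Their stretches are shown because this arrangement is what the enhanceosome that recruits Ciita reads. Capitals mark GNAACT, searched as the core of the X box, and GATTGG, the Y box, which are 25 or 26 bases apart. H2-Eb2, a further class II β chain gene of the region that is described with the Poly(I:C) results, is shown for comparison.
H2-Aa: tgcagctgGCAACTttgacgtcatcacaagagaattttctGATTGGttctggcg
H2-Eb1: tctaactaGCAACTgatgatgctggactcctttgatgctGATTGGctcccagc
H2-DMb1: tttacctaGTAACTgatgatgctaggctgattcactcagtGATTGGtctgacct
H2-Eb2: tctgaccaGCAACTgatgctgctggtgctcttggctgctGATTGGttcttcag
These lie at chr17:34287859-34287912 on the minus strand, and at chr17:34305768-34305820, chr17:34153089-34153142 and chr17:34325535-34325587 on the plus strand. Both motifs were searched on both strands and were spelled after these windows had been read. GNAACT alone occurs in 42.8% of 32851 mouse promoter windows and GATTGG alone in 16.1%, whereas GNAACT followed by GATTGG 20 to 30 bases on occurs in 67 windows, or 0.204%. Neither H2-DMa window held the pair. A match describes letters in a window and shows no binding.

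All 8 macrophage markers tested (Emr1, Csf1r, Cd68, Fcgr1, Mertk, Itgam, Lyz2 and Cd14) were well above background on all 25 arrays. Dendritic cells and B cells are the other professional class II-bearing cells. Of 8 dendritic cell markers, Itgax and Siglech were well above background on 25 arrays, Zbtb46 on 24 and Ccr7 on 21, while Xcr1 was on none and Cd209a on 1. The B cell marker Ms4a1 was on 1. In full, 2 of 8 dendritic cell, 2 of 5 B cell, 3 of 5 T cell, 2 of 6 neutrophil and 1 of 4 fibroblast markers were well above background on every array. That call was made for 74.9% of probes on naïve array 3 and for 43.1% to 55% on the other 24 arrays. The acute LPS arrays were run on 3 slides of their own, so slide and group cannot be told apart there, while the other arrays shared 3 slides, 1 for each replicate number.

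The arrays numbered 3 stood apart. Neutrophil marker probes summed to 1580 to 53300 intensity units (median 3370) on the 7 arrays numbered 3, to 52900 to 270000 (median 77300) on the 15 arrays numbered 1 or 2, and to 485 to 695 on the 3 acute LPS arrays. Class II genes were also low there. In the 6 groups with arrays numbered 1, 2 and 3, leaving out acute LPS, number 3 was the lowest in 6 for H2-DMa, H2-DMb1 and Cd74, in 5 for H2-Ab1 and in 4 for H2-Aa and H2-Eb1. The median gap to the other arrays of the group was 0.91 (H2-Aa) to 1.48 (H2-DMa) on the log2 scale, against -0.01 over 20608 well-measured probes, of which 2.34% had a mean gap of at least 1. The part of the neutrophil-marked cells in the class II values was not tested, and fewer cells of a type and less RNA per cell cannot be told apart in bulk RNA. Results below are given with all arrays, and without those numbered 3 where that changes a call.

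**Figure D1:**
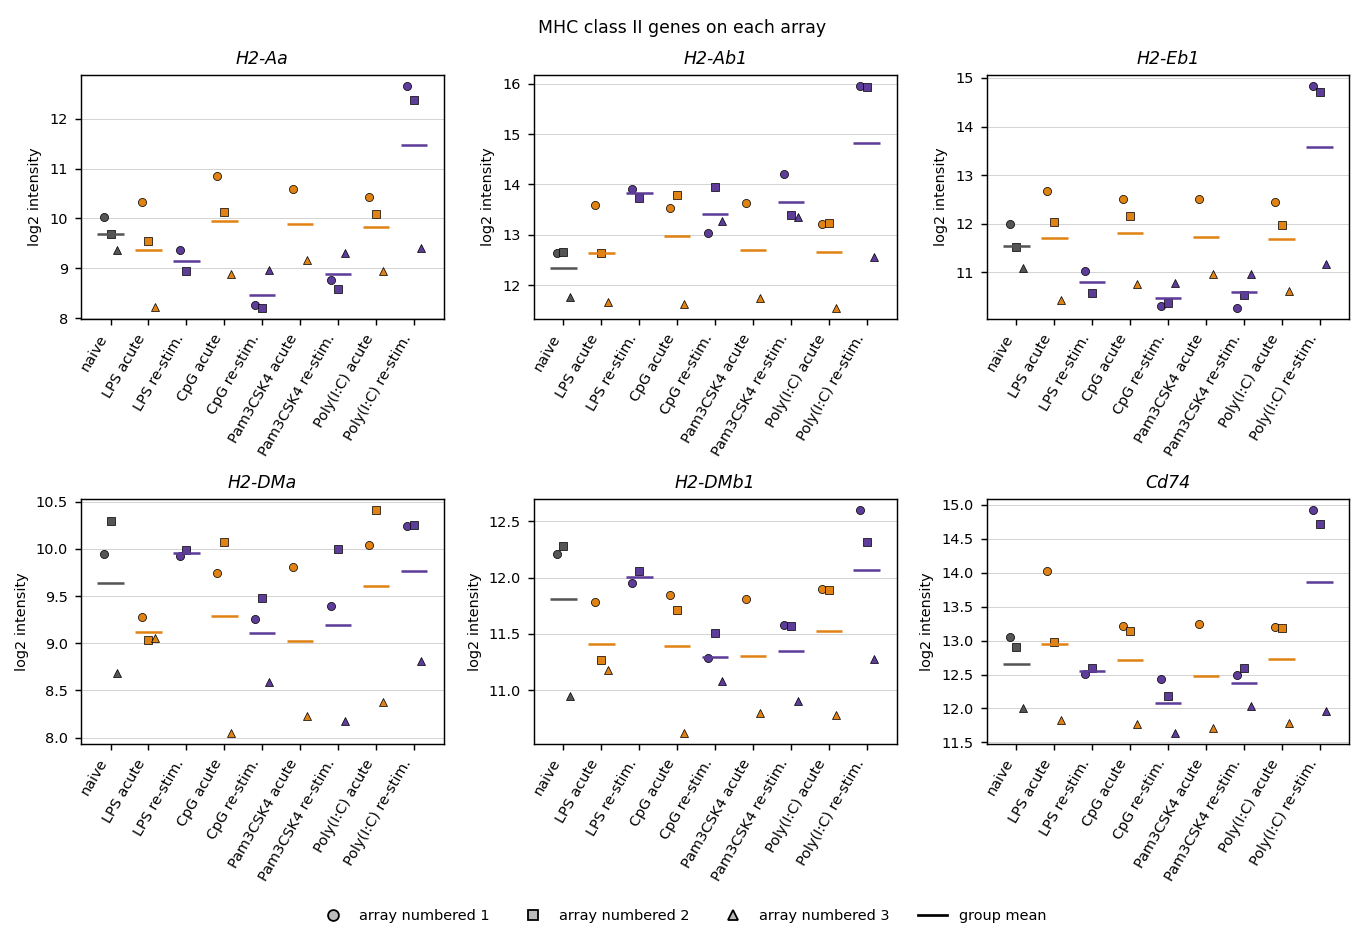
Deposited log2 intensity (y axis, a separate scale for each gene) of 6 class II genes on each array (points, shaped by replicate number) in the 9 groups (x axis), with group means as lines. H2-Ab1 lies between 13.03 and 15.96 on all re-stimulated arrays except Poly(I:C) array 3 at 12.56, and the naïve arrays lie between 11.76 and 12.65.

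After a single exposure of 4 h, none of the members was called for any ligand. A call here is a Benjamini-Hochberg adjusted p under 0.05 in limma with a change of at least 1.5-fold, and 0 members also had an unadjusted p under 0.05. Of all probes tested, 26.4% were called for LPS, 5.72% for CpG, 0% for Pam3CSK4 (3458 probes had an unadjusted p under 0.05) and 6.03% for Poly(I:C). The difference of largest size was that of H2-Ab1 with CpG. H2-Ab1 stood at 12.63, 12.65 and 11.76 in naïve BMDM and at 13.53, 13.79 and 11.63 in CpG acute BMDM, a difference of 0.64 (SE 0.62, 95% interval -0.87 to 2.15, adjusted p = 0.596). The ranges of these groups overlapped, although CpG acute arrays 1 and 2 lay above every naïve array. The median difference of the members was 0.04, 0.16, 0.01 and 0.07 for LPS, CpG, Pam3CSK4 and Poly(I:C), beside -0.01, -0.07, 0.01 and -0.1 over all probes. Without naïve replicate 3, H2-DMa and H2-DMb1 were called lower in acute LPS, 2 members in place of 0. Without all arrays numbered 3, the same pair was called in acute LPS (H2-DMa, -0.97, adjusted p = 0.0146). H2-Ab1 was then called higher by 1.02 with CpG (adjusted p = 0.0273) and by 0.59 with Poly(I:C) (adjusted p = 0.0383). With Pam3CSK4, where only acute array 1 was left, H2-Ab1 was higher by 1. Ciita was also called with Poly(I:C) (0.96, adjusted p = 0.0394), although both naïve arrays left, at 3.94 and 4.43, were not above background. With all arrays the Ciita mean was lower in Poly(I:C) acute BMDM, at 4.59 against 4.83 in naïve BMDM.

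Re-stimulated BMDM separated the chains of the class II heterodimers. With LPS, CpG and Pam3CSK4 the β chain gene H2-Ab1 lay above naïve BMDM, and the α chain gene of the same molecule, H2-Aa, lay below it. H2-Ab1 read 13.91 and 13.73 after LPS, 13.03, 13.94 and 13.27 after CpG, and 14.20, 13.40 and 13.35 after Pam3CSK4. All 8 of these arrays were above the highest naïve value of 12.65. The differences from naïve were 1.48 (SE 0.34, adjusted p = 0.0746), 1.07 (SE 0.35, adjusted p = 0.0989) and 1.3 (SE 0.36, adjusted p = 0.0909), so none was called, although each had an unadjusted p under 0.05. Other processing called some of them. With arrays scaled to a common median, H2-Ab1 was called after CpG (2.25, or 1.48 relative to the shift of all probes, adjusted p = 0.0047) and Pam3CSK4 (2.05, or 1.62 relative to it, adjusted p = 0.0326), which made it the 1 member called after CpG in place of H2-Aa. With normexp it was called after LPS (1.46, adjusted p = 0.0238) and Pam3CSK4 (1.29, adjusted p = 0.0434). H2-Ab1 was above the naïve array of the same number in 11 of 11 re-stimulated arrays, Poly(I:C) included.

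H2-Aa read 10.03, 9.68 and 9.37 in naïve BMDM, 9.36 and 8.95 after LPS, 8.27, 8.20 and 8.96 after CpG, and 8.76, 8.59 and 9.30 after Pam3CSK4. Every one of these re-stimulated arrays was below the lowest naïve array. Measured from the naïve array of the same number, CpG arrays 1, 2 and 3 differed by -1.76, -1.48 and -0.41. Pam3CSK4 arrays differed by -1.27, -1.09 and -0.07, and LPS arrays 1 and 2 by -0.67 and -0.73. The fall was thus small on the arrays numbered 3. H2-Aa fell by 1.22 in CpG re-stimulated BMDM (SE 0.29, 95% interval -1.92 to -0.52, 2.32-fold, adjusted p = 0.0441), the only member called among these 3 comparisons. Its differences were -0.54 (SE 0.28, adjusted p = 0.298) for LPS and -0.81 (SE 0.28, adjusted p = 0.144) for Pam3CSK4. Of all probes, 5.66% were called for LPS, 13.1% for CpG and 5.36% for Pam3CSK4, so 1 of 6 tested members for CpG lay near the background share. Replicate numbers paired the CpG and naïve arrays, and with number as a block H2-Aa was not called (adjusted p = 0.0985). It was also lost without naïve replicate 1 or 2 or any 1 CpG re-stimulated replicate, with 0 members called each time. Without naïve replicate 3 there were 3: H2-Aa, H2-Eb1 and H2-DMb1. Scaling arrays to a common median, which shifted the median of all probes by 0.77 in this comparison, gave -0.34 for H2-Aa, or -1.11 relative to that shift.

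H2-Eb1, the β chain of the I-E pair, followed H2-Aa and not H2-Ab1. It read 12.00, 11.52 and 11.10 in naïve BMDM, 11.02 and 10.58 after LPS, 10.30, 10.36 and 10.78 after CpG, and 10.26, 10.54 and 10.97 after Pam3CSK4. These arrays were again all below the lowest naïve array. Measured from the naïve array of the same number, the fall was again small on the arrays numbered 3. H2-Eb1 differed by -1.70, -1.16 and -0.32 on CpG arrays 1, 2 and 3, and by -1.74, -0.98 and -0.13 on Pam3CSK4 arrays. The differences of the group means were -0.73 (adjusted p = 0.246), -1.06 (adjusted p = 0.0596) and -0.95 (adjusted p = 0.13) and none was called. With median scaling the H2-Eb1 difference after CpG turned to 0.01, or -0.76 relative to the shift of all probes. The unadjusted p was under 0.05 for 1 of 6 tested members after LPS (H2-Ab1), and for 3 after CpG and 3 after Pam3CSK4 (H2-Aa, H2-Ab1 and H2-Eb1). Without the arrays numbered 3, H2-Ab1 was called higher after LPS (1.18, adjusted p = 0.0111), and H2-Aa and H2-Eb1 lower after Pam3CSK4 (-1.18, adjusted p = 0.0205 and -1.35, adjusted p = 0.0221), with H2-DMb1 (-0.67, adjusted p = 0.0455). The median difference of the 6 tested members was 0.04 after LPS, -0.54 after CpG and -0.46 after Pam3CSK4 re-stimulation, beside 0, 0.01 and 0.03 over all probes. Leaving out naïve replicate 3 alone called H2-Ab1 after LPS and H2-Eb1 after Pam3CSK4, 1 member each.

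The divergence was clearest within arrays, where a factor shared by all probes of an array cancels. Background correction and quantile normalisation depend on intensity and need not cancel between probes of unlike brightness. The difference in log2 intensity between the H2-Ab1 and H2-Aa probes of 1 array is set by probe brightness, so only its change between groups is informative. It averaged 2.66 in naïve BMDM (2.40 to 2.97), 4.67 in LPS re-stimulated (4.56 to 4.78), 4.94 in CpG re-stimulated (4.31 to 5.74) and 4.77 in Pam3CSK4 re-stimulated BMDM (4.05 to 5.44). No re-stimulated array of these ligands overlapped the naïve arrays. The change was 2.01, 2.28 and 2.11, each with a two-sided exact permutation p = 0.1, the smallest these group sizes allow. Acute groups averaged 3.26 (LPS), 3.02 (CpG), 2.81 (Pam3CSK4) and 2.84 (Poly(I:C)). After Poly(I:C) re-stimulation the mean was 3.34 (3.16 to 3.56), a change of 0.68, also with exact p = 0.1. H2-Ab1 against H2-Eb1 changed likewise, from 0.81 in naïve BMDM to 3.02, 2.93, 3.06 and 1.24 in LPS, CpG, Pam3CSK4 and Poly(I:C) re-stimulated BMDM (exact p = 0.1, 0.1, 0.1 and 0.2). H2-Eb1 against H2-Aa stayed between 1.65 and 2.34 in the means of all 9 groups (exact p from 0.2 to 0.4 for the 4 re-stimulated groups against naïve). These are 12 comparisons, none of which could reach an exact p under 0.05.

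**Figure D2:**
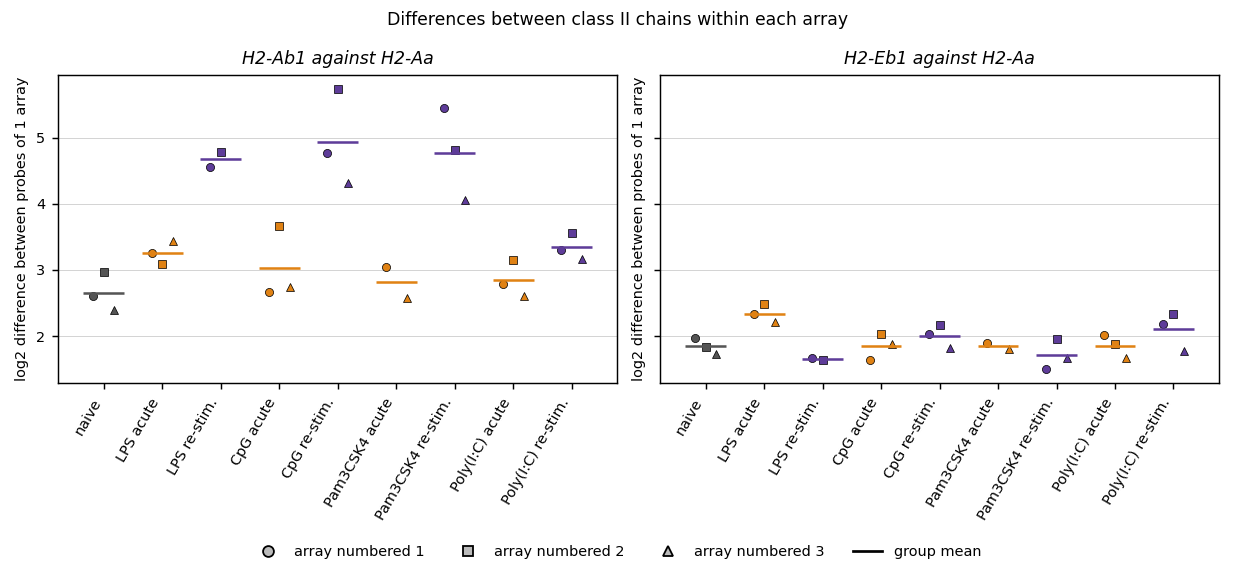
Log2 difference within each array (y axis) of the H2-Ab1 and H2-Eb1 probes from the H2-Aa probe in the 9 groups (x axis), with points shaped by replicate number and lines for group means. For H2-Ab1 the LPS, CpG and Pam3CSK4 re-stimulated means are 4.67 to 4.94 against 2.66 in naïve BMDM, whereas for H2-Eb1 the means run from 1.65 to 2.34.

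Poly(I:C) re-stimulation differed in that H2-Aa, H2-Eb1, H2-Ab1 and Cd74 were all high, but on 2 of 3 arrays. H2-Ab1 read 15.96, 15.94 and 12.56. H2-Aa read 12.66, 12.37 and 9.41. The I-E β chain gene H2-Eb1 read 14.84, 14.71 and 11.18, and Cd74 read 14.92, 14.72 and 11.96. Arrays 1 and 2 exceeded every other array of the series for these 4 genes, and array 3 lay near the naïve array of the same number. Measured from that array, H2-Ab1 differed by 3.33, 3.29 and 0.80, H2-Aa by 2.63, 2.69 and 0.04, H2-Eb1 by 2.84, 3.19 and 0.08, and Cd74 by 1.87, 1.82 and -0.04.

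No member was called in Poly(I:C) re-stimulated against naïve BMDM, where 9.03% of probes were. The difference of H2-Ab1 was 2.47 (SE 0.96, 95% interval 0.13 to 4.82, 5.55-fold, adjusted p = 0.162), and it was the 1 tested member of 6 with an unadjusted p under 0.05. H2-Eb1 differed by 2.04 (SE 1.01, adjusted p = 0.248), H2-Aa by 1.79 (SE 0.87, adjusted p = 0.244) and Cd74 by 1.21 (SE 0.84, adjusted p = 0.395). The median of the 6 tested members was 1.5, beside -0.04 over all probes. Without Poly(I:C) re-stimulated replicate 3 these 4 were called. With all arrays, scaling to a common median, which shifted the median of all probes by 0.58, also called H2-Ab1 (3.3, adjusted p = 1.59e-05) and H2-Eb1 (2.81, adjusted p = 0.000433). It called H2-Aa (2.44, adjusted p = 0.00338) and Cd74 (2.07, adjusted p = 0.0199) too. Slide as a random block, run in 1 fit of all 9 groups, called H2-Ab1, H2-Eb1 and H2-Aa. That fit without the block called H2-Ab1 (adjusted p = 0.0342), so the absence of calls depends on the processing and the fit as well. Without all arrays numbered 3, the differences were 3.31 (adjusted p = 0.00128), 3.02 (adjusted p = 0.00227), 2.66 (adjusted p = 0.0026) and 1.84 (adjusted p = 0.00358) for H2-Ab1, H2-Eb1, H2-Aa and Cd74. On the same array 3, Ccr7, the homing receptor of mature dendritic cells, read 4.94 against 11.82 and 11.82 on the other arrays, and 3.07 against 8.01 and 8.38 in naïve BMDM. Dendritic cell markers summed to 45600 to 72100 in Poly(I:C) re-stimulated and 87700 to 93900 in naïve BMDM, and B cell markers to 236 to 272 and 282 to 565. The dendritic cell sum is mostly Siglech, at 15.32 to 16.02 and 16.21 to 16.31. Macrophage markers summed to 555000 to 724000 in Poly(I:C) re-stimulated and 769000 to 798000 in naïve BMDM. Emr1, Csf1r, Cd68, Mertk, Itgam and Lyz2 were lower than the naïve array of the same number on every array. Cd14 was higher on every array, and Fcgr1 was higher on arrays 1 and 3. Other markers differed in direction. The dendritic cell marker Itgax was lower in Poly(I:C) re-stimulated than in naïve BMDM, at 10.86, 9.86 and 11.49 against 13.72, 13.49 and 13.31. The fibroblast markers Col1a1, Col1a2 and Col3a1 lay above the naïve array of the same number on some arrays and below it on others. So did the neutrophil markers S100a8, S100a9, Mpo and Ngp. The markers that follow were higher on every array, as was the neutrophil marker Camp. The dendritic cell factor Zbtb46 read 6.71, 6.58 and 7.29 against 4.31, 4.73 and 3.11, the fibroblast marker Dcn 8.31, 8.47 and 6.63 against 5.47, 5.18 and 3.70, and the neutrophil marker Ly6g 12.29, 12.78 and 6.42 against 8.91, 9.60 and 2.54. The part of such cells in the class II values was not tested.

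**Figure D3:**
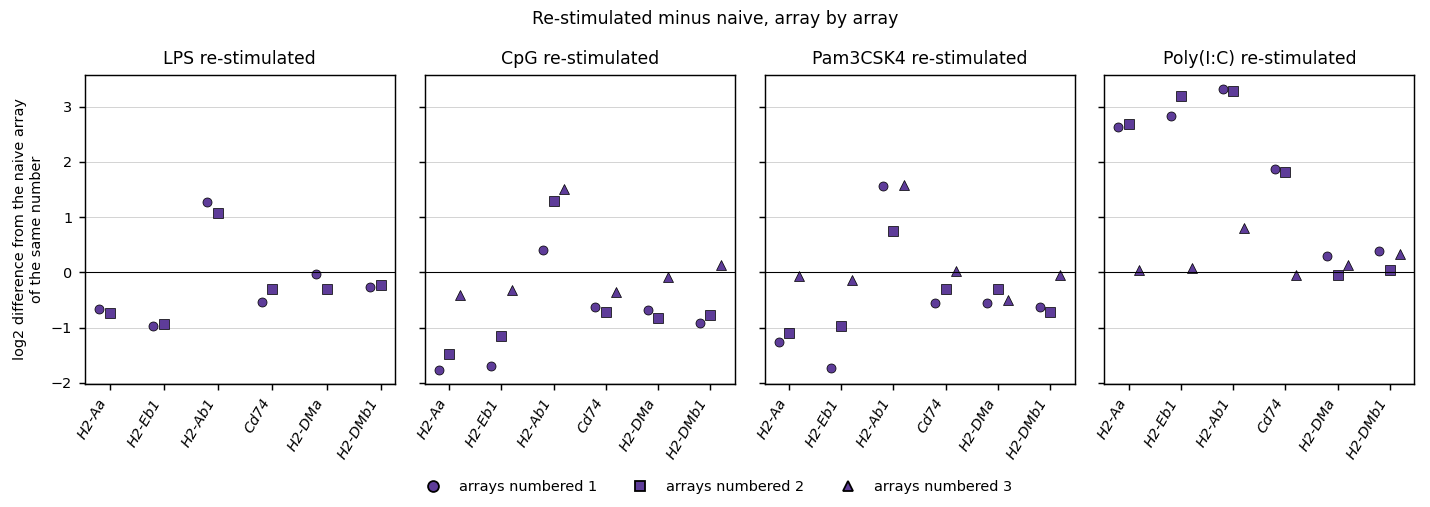
Log2 difference of each re-stimulated array from the naïve array of the same replicate number (y axis) for 6 genes (x axis), 1 panel for each ligand, with points shaped by number. H2-Ab1 is above 0 on all 11 arrays, from 0.40 to 3.33, while H2-Aa is below 0 after LPS, CpG and Pam3CSK4 and above 2.6 on Poly(I:C) arrays 1 and 2.

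Set against the acute response to the same ligand, re-stimulation called 1 member. H2-DMa read 9.28, 9.03 and 9.06 in LPS acute BMDM and 9.92 and 9.99 in LPS re-stimulated BMDM, where it rose by 0.83 (SE 0.20, 1.78-fold, adjusted p = 0.0214). This was 1 of 7 members in a comparison in which 34.2% of probes were called. The acute LPS arrays lay on their own slides, and 5 of 6 neutrophil markers were called higher in the same comparison, whose part in the difference was not tested. The call was absent without LPS acute replicate 2 and without either LPS re-stimulated replicate, where 0 members were called and the remaining array was taken to vary like the other group. With LPS acute replicate 1 left out H2-Ab1 joined it, and with LPS acute replicate 3 left out H2-Eb1 did. H2-DMa was not called in the 9-group fit (adjusted p = 0.405), with slide as a random block (adjusted p = 0.476), without the background filter (adjusted p = 0.063), after median scaling (adjusted p = 0.0515) or with rebuilt values for all 27 arrays (adjusted p = 0.0874). Ciita was well above background on 2 of 3 LPS acute arrays and on neither LPS re-stimulated array. Its means were 4.87 and 3.87, which was not called (adjusted p = 0.0554), and no direction is given at this signal.

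For the other ligands no member was called between acute and re-stimulated BMDM, where 3.56% (CpG), 0% (Pam3CSK4, with 3461 probes at an unadjusted p under 0.05) and 4.93% (Poly(I:C)) of probes were called. H2-Aa and H2-Eb1 were lower by 1.48 and 1.33 after CpG re-stimulation (adjusted p = 0.159 and 0.158), and these were the 2 members with an unadjusted p under 0.05. No member had one for Pam3CSK4 or Poly(I:C). Measured from the acute array of the same number, H2-Ab1 differed by -0.50, 0.15 and 1.64 on CpG re-stimulated arrays 1, 2 and 3. It differed by 0.56 and 1.61 on Pam3CSK4 re-stimulated arrays 1 and 3. The members' median was -0.22 (LPS), -0.4 (CpG), -0.03 (Pam3CSK4) and 1.14 (Poly(I:C)), beside -0.02, 0.06, 0.02 and 0 over all probes. Without CpG acute replicate 3, H2-Aa and H2-Eb1 were called, and without Poly(I:C) re-stimulated replicate 3, H2-Aa, H2-Ab1 and H2-Eb1 were. Without all arrays numbered 3, H2-Aa was called lower with CpG (-2.26, adjusted p = 0.0281) and higher with Poly(I:C) (2.25, adjusted p = 0.0101). H2-Eb1 was called in the same directions, and H2-Ab1 (2.72, adjusted p = 0.00815) and Cd74 (1.63, adjusted p = 0.0102) were called higher with Poly(I:C). With Pam3CSK4, where only acute array 1 was left, H2-Aa differed by -1.92 and H2-Eb1 by -2.1.

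The re-stimulated groups were then compared with each other in 1 limma fit of all 9 groups. H2-Aa and H2-Eb1 were higher after Poly(I:C) than after CpG or Pam3CSK4, and Cd74 and H2-Ab1 were not called. H2-Aa was higher by 3 than after CpG (SE 0.71, 95% interval 1.5 to 4.5, 8.01-fold, adjusted p = 0.015) and by 2.59 than after Pam3CSK4 (SE 0.71, 6.03-fold, adjusted p = 0.0253). H2-Eb1 was higher by 3.1 (SE 0.78, 95% interval 1.45 to 4.74, 8.56-fold, adjusted p = 0.0209) and by 2.99 (SE 0.78, 7.93-fold, adjusted p = 0.0192). Called members were thus 2 of 7 in each, beside 6.89% and 10.1% of probes. H2-Ab1 differed by 1.41 from CpG (95% interval -0.26 to 3.07, adjusted p = 0.339) and by 1.17 from Pam3CSK4 (-0.5 to 2.84, adjusted p = 0.398). Cd74 differed by 1.78 (0.34 to 3.22, adjusted p = 0.134) and 1.49 (0.06 to 2.93, adjusted p = 0.187).

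These calls rested on arrays 1 and 2 of each group. Leaving out Poly(I:C), CpG or Pam3CSK4 re-stimulated replicate 1 or 2 left 0 members called in the comparison concerned. Leaving out Poly(I:C) re-stimulated replicate 3 gave 4 in each: H2-Aa, H2-Ab1, H2-Eb1 and Cd74. Numbers paired the arrays in both comparisons, and with number as a block 4 were called in each: H2-Aa, H2-Eb1, H2-DMb1 (0.77, adjusted p = 0.0276 against CpG) and Cd74 (1.78, adjusted p = 0.00487 against CpG). With rebuilt values for all 27 arrays, 0 were called in each.

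Between LPS and Poly(I:C) re-stimulated BMDM no member was called, and 1.49% of probes were. H2-Aa differed by 2.33 (95% interval 0.65 to 4, adjusted p = 0.197) and H2-Eb1 by 2.78 (0.94 to 4.61, adjusted p = 0.147), and both had an unadjusted p under 0.05. Without Poly(I:C) re-stimulated replicate 3 both were called. Among LPS, CpG and Pam3CSK4 re-stimulated BMDM no member was called, none had an unadjusted p under 0.05, and the smallest adjusted p was 0.627. Of all probes, 0.0227% (LPS and CpG), 1.06% (LPS and Pam3CSK4) and 0.11% (CpG and Pam3CSK4) were called. The intervals are wide. H2-Aa differed by 0.41 between CpG and Pam3CSK4, with a 95% interval of -1.09 to 1.91, so a difference of several-fold could not be detected. The acute groups that shared slides likewise gave 0 members called and 0 at an unadjusted p under 0.05, beside 0.0292% (CpG and Pam3CSK4), 3.92% (CpG and Poly(I:C)) and 6.48% (Pam3CSK4 and Poly(I:C)) of probes. Acute LPS was not compared with other acute groups because of its slides.

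**Figure D4:**
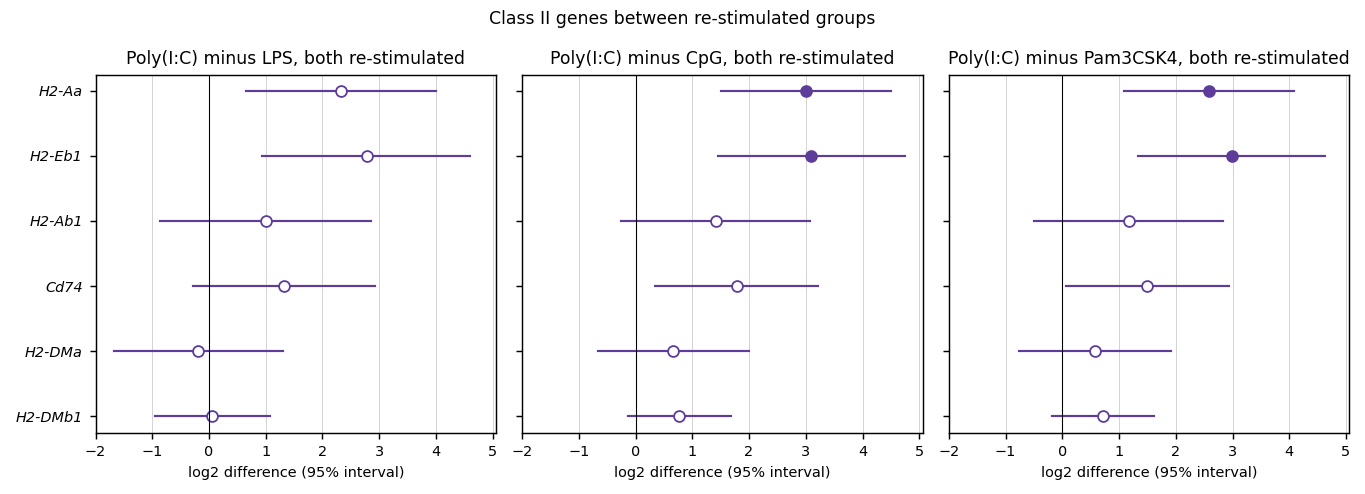
Log2 difference (x axis) between Poly(I:C) and each other re-stimulated group for 6 genes (y axis), as points with 95% intervals from the 9-group fit, filled where called. H2-Aa and H2-Eb1 are filled against CpG (3 and 3.1) and Pam3CSK4 (2.59 and 2.99), and no gene is filled against LPS.

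The accessory members moved less than the chains. Cd74 read 13.05, 12.90 and 12.00 in naïve BMDM and differed from it by -0.1 after LPS, -0.56 after CpG and -0.28 after Pam3CSK4 re-stimulation (adjusted p = 0.884, 0.327 and 0.639). H2-DMb1 read 12.21, 12.28 and 10.95 in naïve BMDM and differed by 0.19, -0.52, -0.47 and 0.25 after LPS, CpG, Pam3CSK4 and Poly(I:C) re-stimulation. H2-DMa differed by 0.31, -0.53, -0.45 and 0.12. The LPS re-stimulated group has no array numbered 3, and naïve array 3 was the lowest naïve array for these genes. Measured from the naïve array of the same number, H2-DMb1 differed by -0.26 and -0.22 on LPS re-stimulated arrays 1 and 2. H2-DMa differed by -0.03 and -0.31 there, and Cd74 by -0.54 and -0.31. Neither H2-DM gene was called in these 4 comparisons, and on Poly(I:C) arrays 1 and 2, where Cd74 and the chains peaked, H2-DMa read 10.24 and 10.25 against 9.95 and 10.30 in naïve BMDM.

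Ciita was near background throughout. It was well above background on 1 of 3 naïve, 2 of 3 LPS acute, 1 of 3 CpG acute, 1 of 2 Pam3CSK4 acute, 2 of 3 Poly(I:C) acute and 1 of 3 Poly(I:C) re-stimulated arrays, and on none after re-stimulation with LPS, CpG or Pam3CSK4. The naïve arrays read 3.94, 4.43 and 6.12, so their spread spans more than 2 log2 units. Poly(I:C) re-stimulated BMDM read 5.43, 4.71 and 4.17, while the mean of naïve BMDM was 4.83. That mean is raised by naïve array 3, the 1 naïve array above background. Measured from the naïve array of the same number, Ciita differed by 1.49, 0.28 and -1.95 on Poly(I:C) re-stimulated arrays 1, 2 and 3. On arrays 1 and 2 it differed by 0.28 and -0.91 after LPS, 0.40 and -0.30 after CpG, and 0.07 and 0.07 after Pam3CSK4 re-stimulation. No direction is given for Ciita against naïve BMDM at this signal, and too few arrays passed the background filter for a test in these 4 comparisons.

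Across the 9 group means the chains sorted into the same sets. H2-Aa and H2-Eb1 correlated at r = 0.976 and Cd74 with them at 0.903 and 0.936, whereas H2-Ab1 correlated with H2-Aa at 0.357 and with H2-Eb1 at 0.321. H2-DMa and H2-DMb1 correlated at 0.927. These values describe 9 means that share replicate numbers and slides. Among 21808 genes, those whose means followed H2-Ab1 most closely were Mrps30 (r = 0.964), Rabl5 (0.963), Cabyr (0.962), Chmp2a (0.961) and Grap (0.96), none of them an MHC gene. For Ciita, whose values are near background, the highest were 9330198I05Rik (0.956) and NAP114350-1 (0.954), followed by C130045F17Rik, Rpl34-ps1 and an unnamed probe at 0.932 to 0.933.

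The order of the group means put Poly(I:C) re-stimulated BMDM first for both I-A chains and H2-Eb1, and split below it. H2-Ab1 ran from 14.82 (Poly(I:C)) through 13.82 (LPS), 13.65 (Pam3CSK4) and 13.41 (CpG), all re-stimulated, to the acute groups at 12.63 to 12.98 and naïve BMDM last at 12.35. H2-Aa ran from 11.48 through the acute groups at 9.37 to 9.96, with naïve BMDM at 9.69 among them, to LPS (9.15), Pam3CSK4 (8.89) and CpG (8.48) re-stimulated BMDM last. Neighbours in either order overlapped in their ranges.

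Other genes of the pathway were taken as 4 lists. The enhanceosome list (7 genes of the RFX, CREB and NF-Y complexes that recruit Ciita) had 0 of 6, 1 of 6, 0 of 6 and 2 of 7 tested genes called in LPS, CpG, Pam3CSK4 and Poly(I:C) re-stimulated against naïve BMDM, all higher, with medians of 0.5, 0.36, 0.44 and 0.42. The shares of all probes called in these 4 comparisons, against which the counts of each list are to be read, were 5.66%, 13.1%, 5.36% and 9.03%. Counts of 0 to 2 in lists of this size are single genes, and nothing is read from them about the list. Creb1 was called higher after CpG (1.01, adjusted p = 0.0232) and Poly(I:C) re-stimulation (1.16, adjusted p = 0.0398) on its brightest probe. The mean of its probes gave 0.36 (adjusted p = 0.255) and 0.30 (adjusted p = 0.453), neither of them called. Rfx5, the DNA-binding RFX subunit, read 2.79, 3.86 and 2.57 in naïve and 4.82, 5.23 and 4.57 in Poly(I:C) re-stimulated BMDM, a difference of 1.8 (SE 0.39, adjusted p = 0.0442). These Rfx5 levels are close to background, which they exceeded on 1 of 3 naïve arrays, on all 3 Poly(I:C) re-stimulated arrays and on none of the other re-stimulated arrays. The Rfx5 call was lost with normexp (0.40, adjusted p = 0.093), with the mean of its probes (1.26, adjusted p = 0.115) and without the background filter (adjusted p = 0.0842). Rfx5 read 2.6-fold higher after Poly(I:C) re-stimulation than after CpG (adjusted p = 0.0279) and 3.2-fold higher than after Pam3CSK4 (adjusted p = 0.0057), where it did not exceed background. Rfxank, a second RFX subunit, rose by 1.09 from acute to re-stimulated Poly(I:C) (adjusted p = 0.0271) and, with Rfxap, by 1.28 and 1.47 from acute to re-stimulated LPS (adjusted p = 0.00666 and 0.027).

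The list of processing and other class II genes (12 genes) had 1 of 9 tested genes called higher after LPS, 1 higher and 2 lower of 9 after CpG, 0 of 9 after Pam3CSK4 and 1 of 10 higher after Poly(I:C) re-stimulation against naïve BMDM, with medians of -0.23, -0.37, -0.42 and -0.19. Sppl2a, the protease that clears the Cd74 stub and carries an older name on the array, rose after LPS (1.13, adjusted p = 0.0368), Poly(I:C) (1.16, adjusted p = 0.0172) and CpG re-stimulation (0.91, adjusted p = 0.0286). Ifi30, the lysosomal thiol reductase GILT, fell by 1.2 after CpG (adjusted p = 0.0214), from 13.59, 13.52 and 13.15 to 12.48, 12.09 and 12.11. The class II genes H2-Oa and H2-Eb2 were also high on Poly(I:C) re-stimulated arrays 1 and 2. H2-Oa, the α chain of the H2-DM modulator H2-DO, read 5.27, 5.26 and 3.39 in naïve and 10.30, 10.72 and 6.79 in Poly(I:C) re-stimulated BMDM, and was higher there than after CpG (3.12, SE 0.83, adjusted p = 0.0281) or Pam3CSK4 (2.76, SE 0.83, adjusted p = 0.0402). H2-Eb2 read 8.72, 9.12 and 2.86 in Poly(I:C) re-stimulated BMDM and was well above background on 2 of those arrays and on no other array of the series. Its mean was 23.7-fold higher than after CpG (adjusted p = 0.0123) and 16.8-fold higher than after Pam3CSK4 (adjusted p = 0.0192), means 6.9 against 2.27 and 2.82. The mean of 6.9 includes array 3 at 2.86, so these folds do not hold for every array. The array numbered 3 was again the low one for both genes. Unlike H2-Aa and H2-Eb1, H2-Oa was well above the naïve array of that number there (6.79 against 3.39). H2-Oa was also called higher in re-stimulated than in acute LPS (2.12, adjusted p = 0.00224), but not in the 9-group fit (adjusted p = 0.0924).

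The Ciita regulators (13 genes of the interferon-γ route to Ciita and its repressors) were all tested, and 2, 2, 2 and 4 of the 13 were called in LPS, CpG, Pam3CSK4 and Poly(I:C) re-stimulated against naïve BMDM, beside 5.66%, 13.1%, 5.36% and 9.03% of probes. Of these calls 1, for Poly(I:C), was lower. Their medians were 0.1, 0.09, -0.26 and 0.22. Socs1, a feedback inhibitor of JAK signalling, rose in all 4 by 3.28, 5.16, 3.27 and 3.38 (adjusted p = 0.0157, 0.00174, 0.024 and 0.0489). Jak2, a kinase of the interferon-γ receptor, rose in all 4 by 3.07, 2.6, 2.26 and 2.71 (adjusted p = 0.0118, 0.00957, 0.0186 and 0.00472). Irf1, which binds the interferon-responsive Ciita promoter, rose with acute LPS (3.48, adjusted p = 0.000399), Poly(I:C) (3.89, adjusted p = 0.00516) and CpG (2.71, adjusted p = 0.0163). After re-stimulation it was called against naïve only for Poly(I:C), by 2.1 (SE 0.18, adjusted p = 0.00592). There it was higher than after LPS (1.83, adjusted p = 0.0344), CpG (1.54, adjusted p = 0.0182) and Pam3CSK4 (3.38, adjusted p = 1.92e-05). Unlike the class II chains, Irf1 was alike on the 3 Poly(I:C) arrays, at 15.01 to 15.09.

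Of 8 traffic and turnover genes, all tested, 1 was called higher after LPS, 1 higher and 2 lower after CpG, 1 lower after Pam3CSK4 and 0 after Poly(I:C) re-stimulation against naïve BMDM, beside the same shares of probes, with medians of -0.35, -0.33, -0.4 and -0.3. Cd83, which protects surface class II from removal, fell by 2.73 after CpG (adjusted p = 0.0175) and by 2.72 after Pam3CSK4 (adjusted p = 0.031), and fell by 4.93 from acute to re-stimulated LPS (adjusted p = 0.000679). It was higher after Poly(I:C) than after CpG, by 2.87 (adjusted p = 0.0043). Cd63, a tetraspanin of late endosomes, fell by 0.99 after CpG (adjusted p = 0.0358). March1, the ligase that ubiquitinates class II for degradation, has 2 probes that disagreed. The brighter probe rose after LPS (1.61, adjusted p = 0.027) and CpG (1.88, adjusted p = 0.00646) re-stimulation, while the other had means of 10.02 in naïve, 6.92 in LPS and 7.9 in CpG re-stimulated BMDM, so no direction is given for the gene.

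Many of these pathway calls were lost when 1 array was left out, although the direction stayed. Calls that stayed under the threshold whichever array was left out were those of Irf1 with acute LPS and acute and re-stimulated Poly(I:C), Jak2 after CpG and Poly(I:C), and Socs1 after CpG. Between acute and re-stimulated LPS, Rfxank, Cd83 and H2-Oa stayed called whichever LPS acute array was left out. The other calls given against naïve BMDM for Creb1, Rfx5, Sppl2a, Ifi30, Socs1, Jak2, Irf1 (acute CpG), Cd83 and Cd63 each reached an adjusted p of 0.0706 to 0.289 without 1 array, and H2-Oa reached 0.18 against CpG and 0.215 against Pam3CSK4. H2-Eb2 reached 0.0569 and 0.0645, Rfxap 0.127 in LPS and Rfxank 0.108 in Poly(I:C). Single arrays were not left out for the ligand comparisons of Rfx5, Irf1 and Cd83. With replicate number as a block, where numbers paired the arrays, the calls against naïve BMDM lost were Creb1 after Poly(I:C) (adjusted p = 0.0852), Socs1 after Pam3CSK4 and Poly(I:C) (0.0582 and 0.0817), Jak2 and Cd83 after Pam3CSK4 (0.0546 each), and Sppl2a and Cd63 after CpG (0.0644 and 0.0767).

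**Figure D5:**
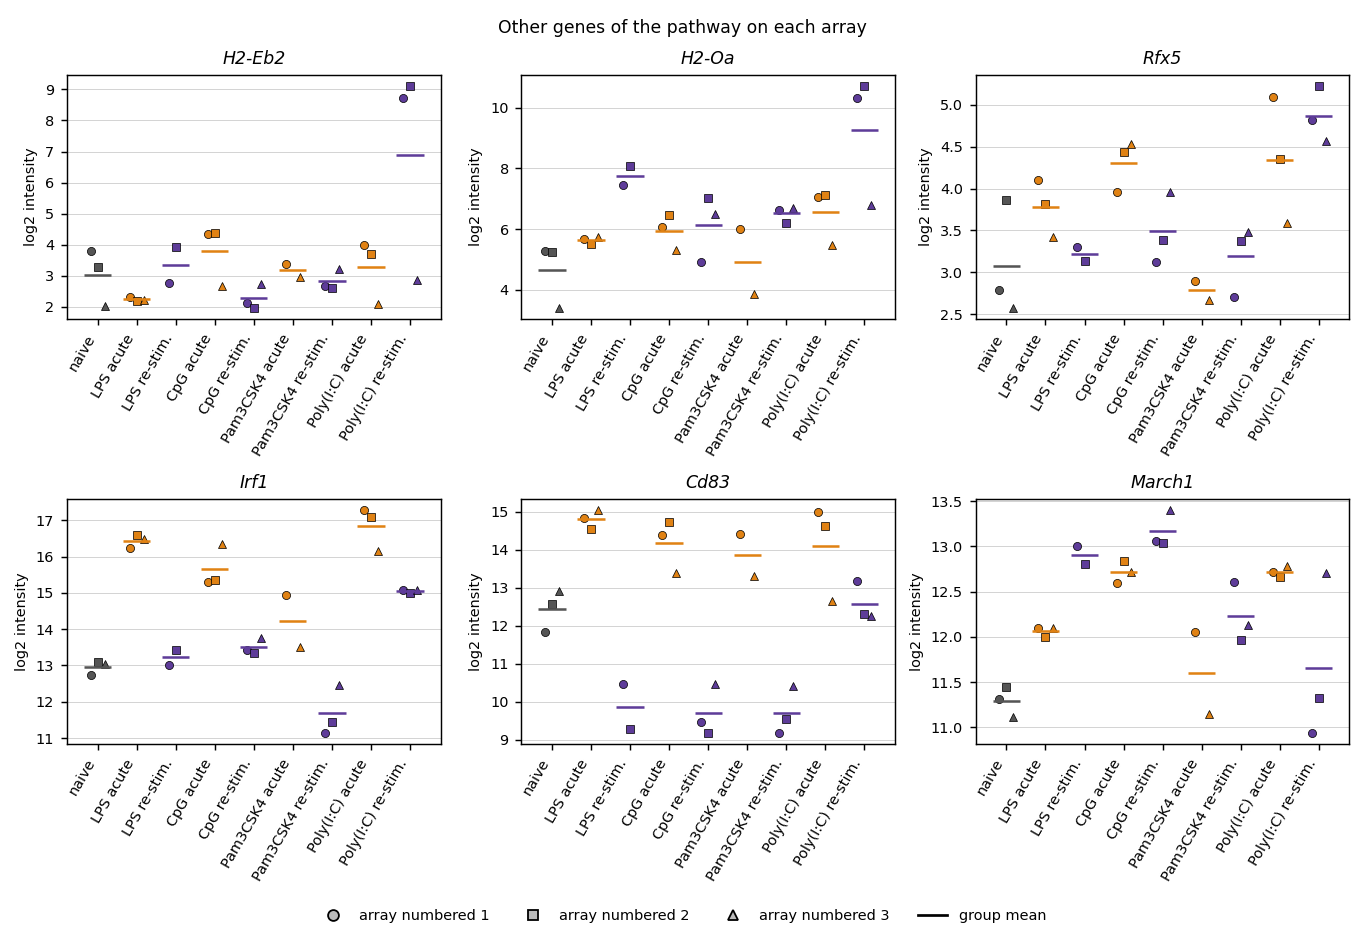
Deposited log2 intensity (y axis, a separate scale for each gene) of 6 other pathway genes on each array (points, shaped by replicate number) in the 9 groups (x axis), with group means as lines. H2-Eb2 and H2-Oa are high on Poly(I:C) re-stimulated arrays 1 and 2 (8.72 to 10.72), and Irf1 is at 15.01 to 15.09 on all 3 arrays of that group.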

How the data were processed

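Per the labels and methods, labelled RNA was hybridised to 1-colour Agilent whole-mouse arrays and read with Feature Extraction 10.7.3.1. The authors corrected the background (RMA method) and quantile-normalised the arrays in limma, and deposited log2 values for 25 of 27 arrays and the scanner intensity files of all 27. The deposited log2 values (0.943 to 18.8) were the main values. They were checked against values rebuilt from the scanner intensities by RMA background correction and quantile normalisation (median absolute difference 0.0355), and all 25 columns matched their own array best. Precision is limited by the number of arrays. Groups came from the sample labels. Each pair of groups was fitted on its own with limma 3.58.1 (R 4.3.3) over probes that Feature Extraction marked well above background on 2 or more arrays of 1 group of the pair, with Benjamini-Hochberg adjustment over all of them. A call needed an adjusted p under 0.05 and 1.5-fold. Ligands were compared in 1 fit of all 9 groups. A gene was read by its brightest probe. The H2-Eb2 fold against CpG uses the higher of the dim probe and the lowest well-measured signal of the array (1.26 to 2.85). Against Pam3CSK4 the dim readings were the higher, so that fold is the measured one. Other probes, such as that of Ciita, read above that signal without being well above background, so neither fold is a bound. Named pathway genes were, per list, up to 4 called genes with the largest differences. The pattern neighbours were the 5 highest correlations with H2-Ab1 and Ciita. Same-numbered arrays deviated together (every pair's correlation over 0.1) for CpG and Poly(I:C) against naïve and between their acute and re-stimulated groups, for Pam3CSK4 re-stimulated against naïve, and among CpG, Pam3CSK4 and Poly(I:C) re-stimulated and CpG and Poly(I:C) acute groups. Code was tested on simulated data. Members, lists and tests were chosen with earlier results of these data known. Results for a few listed genes are not reported here.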

Additional observations from a re-analysis of the deposited data

Results flagged for a closer look

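Between re-stimulated groups, 4 class II genes differed by ligand in the test of the difference itself, each higher after Poly(I:C). H2-Aa and H2-Eb1 are 2 of 7 members, and H2-Eb2 and H2-Oa are from the list of 12 processing and other class II genes. Of all probes, 6.89% (against CpG) and 10.1% (against Pam3CSK4) were called in the same fit. Without 1 array each of these genes reached an adjusted p of 0.0569 to 0.215. With rebuilt values for all 27 arrays neither member was called. Against CpG the log2 differences were 3 for H2-Aa, 3.1 for H2-Eb1, 4.63 for H2-Eb2 and 3.12 for H2-Oa. Against Pam3CSK4 they were 2.59, 2.99, 4.07 and 2.76 in the same order. The fitted H2-Eb2 values rest on groups below background and are not bounds. On all 4 genes the Poly(I:C) re-stimulated array numbered 3 was below the other arrays of its group, and the cause was not tested.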

How the results depend on the processing

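For member counts 250 alternative values stayed within the limits set and 68 moved. For named genes and the H2-Ab1 to H2-Aa ratio 1093 stayed, 49 became called, 271 lost their call and 8 reversed. The causes were not tested. The change in H2-Ab1 against H2-Aa from naïve ranged over 1.89 to 2.21 for LPS and 0.56 to 0.85 for Poly(I:C), and over 1.88 to 2.6 for CpG and 1.77 to 2.47 for Pam3CSK4. Leaving out the arrays numbered 3, an alternative chosen after seeing the data, called 2, 1 and 2 members in acute against naïve BMDM (LPS, CpG, Poly(I:C)). It called 2, 2 and 4 in re-stimulated against acute BMDM of these ligands. No count is given for acute Pam3CSK4, where only array 1 was left. The same alternative called 1, 3, 3 and 4 in re-stimulated against naïve (LPS, CpG, Pam3CSK4, Poly(I:C)), and 4, 6 and 5 in Poly(I:C) against LPS, CpG and Pam3CSK4 re-stimulated BMDM.

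Acute against re-stimulated LPS called 1 member, and 0 in the 9-group model, with all 27 rebuilt arrays, without the detection filter or with slide as a random block, 2 with the mean of a gene's probes, and 3 with a replicate block (H2-Aa, H2-Eb1, H2-DMa). CpG re-stimulated against naïve BMDM called 1, and 0 in the 9-group model, without the filter, with a replicate block or with slide as a random block, and 2 with normexp. LPS re-stimulated against naïve called 1 with normexp and 2 with a replicate block (H2-Ab1, H2-Eb1), and Pam3CSK4 re-stimulated against naïve 1 with median scaling or normexp. Poly(I:C) re-stimulated called against naïve 1 in the 9-group model, 4 with median scaling and 3 with slide as a block, and against acute 1 with slide as a block. Poly(I:C) against LPS re-stimulated called 3 with a replicate block and 1 with slide as a block. Slide as a block was always fitted in the 9-group model. Against CpG and Pam3CSK4, Poly(I:C) called 4 each with a replicate block and 0 each with all 27 rebuilt arrays. The replicate block moved no other count of members by over 1.5 times. Pairing by number was not established for the LPS arrays, nor for the Pam3CSK4 acute arrays with 2 pairs. Of these, only the acute LPS arrays lay on slides of their own.

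Leaving out 1 replicate at a time gave 0 to 2 members in acute LPS against naïve, 0 to 2 in acute against re-stimulated LPS and CpG, 0 to 3 for Poly(I:C), 0 to 1 in LPS and in Pam3CSK4, 0 to 3 in CpG and 0 to 4 in Poly(I:C) re-stimulated against naïve, and 0 to 2, 0 to 4 and 0 to 4 in Poly(I:C) against LPS, CpG and Pam3CSK4 re-stimulated BMDM. It gave 0 in all other comparisons.

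With the mean of its probes March1 turned to -1.63 (acute against re-stimulated LPS), -0.74 (naïve against LPS re-stimulated) and -0.12 (naïve against CpG re-stimulated). With all 27 rebuilt arrays H2-Aa turned to 1.12 and H2-Eb1 to 0.17 in acute against re-stimulated Pam3CSK4. Median scaling moved the median of all probes by 0.10 to 0.77, and turned Cd63 to 0.18, H2-Eb1 to 0.01 and Ifi30 to 0.04 in naïve against CpG re-stimulated BMDM. Dim probes such as Ciita, Rfx5 and H2-Eb2 limit what can be measured.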
